A study of Homo sapiens with 12 samples.

Results

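The expression of 10 genes of lipoprotein assembly and transport was followed in Huh7 cells, a human hepatocellular carcinoma line, exposed to Molidustat at 25 µM, or to its solvent DMSO, during 24 h or 48 h. The genes were taken by symbol and comprise the apolipoproteins APOA1, APOA2, APOB, APOC1, APOC3, APOE, APOH and APOM with the assembly factors MTTP and TM6SF2, that is 10 of the 60666 genes listed. Molidustat is an inhibitor of the prolyl hydroxylases that mark hypoxia-inducible factors for degradation, and both arms received DMSO. Each of the 4 groups (DMSO 24 h, Molidustat 24 h, DMSO 48 h, Molidustat 48 h) had 3 libraries made with a 3′ transcriptome kit, and all came from the same line grown in high-glucose medium with fetal serum, with no untreated group and no second line. The study's methods speak of biological replicates and its record of triplicate RNA extractions, so p-values measure the spread between these libraries, which may be partly technical.

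Lipoproteins carry triglycerides and cholesterol through the blood in particles coated with apolipoproteins, and the liver is a main source of them. In hepatocytes, APOB is loaded with lipid in the endoplasmic reticulum by the microsomal triglyceride transfer protein, encoded by MTTP, and the particle, enlarged with the help of TM6SF2, leaves the cell as very low density lipoprotein (VLDL). APOA1 and APOA2 are the main proteins of high density lipoprotein (HDL), and the small exchangeable apolipoproteins APOC1, APOC3 and APOE move between particles and set how fast these are lipolyzed and taken up. Hepatoma cells such as Huh7 keep much of this program in culture, which has made them a common model of apolipoprotein secretion.

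The libraries held between 1499273 and 9179389 gene counts. DMSO 48 h replicate 2 was the smallest and stood apart from the other 11. Its reads outside any annotated feature made up 50.4% of those listed, where the other libraries had 17.1% to 25.6%, and its trimmed-mean (TMM) scaling factor was 0.629 against 1.01 to 1.08. Every 48 h comparison with DMSO and every comparison of DMSO over time rests directly on it, and values without it are given beside those it moved most. Levels below are CPM, that is counts per 1000000 counts of the TMM-scaled library. A gene was called when edgeR's quasi-likelihood test, fitted on all 12 libraries, gave a Benjamini-Hochberg adjusted p under 0.05 over 14274 genes and a log2 fold change beyond 1. All 10 members passed the filter on low counts. The groups share their estimate of the spread, so DMSO 48 h replicate 2 also bears on the SEs and adjusted p-values of the other comparisons. Without it, 0.728% of all genes were called higher at 24 h and 0.0328% lower, against 0.231% and 0% with it. No member was called at 24 h in either fit.

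The hepatocyte identity of the cells was visible in every library. All 12 hepatocyte markers examined had counts in all 12 libraries, with AFP, a fetal liver protein of many hepatomas, the most abundant at a mean of 7161 CPM. Summed over these markers, the levels were 13524, 14313 and 15503 CPM in DMSO 24 h, 19392, 22119 and 22913 CPM in Molidustat 24 h, 18315, 9115 and 17538 CPM in DMSO 48 h, and 27518, 24938 and 31120.4 CPM in Molidustat 48 h. The treated libraries thus lay above the DMSO libraries of the same time. Of 12 markers of leukocytes, endothelium, fibroblasts and bile duct, 3 to 7 had any count in a library, 2 had none in any library (VWF and ACTA2), the leukocyte gene PTPRC had none in 10 libraries, and lysozyme (LYZ), at a mean of 130.4 CPM, made up most of their sum.

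For 7 of the 10 members, RefSeq promoter windows on GRCh38.p14 (250 bases before to 50 after a start) were at hand, 10 windows in all, and the windows of APOA1, APOB and APOC3 were not analysed here. Because the drug acts on hypoxia-inducible factors, both strands were searched for 2 forms of the core of the hypoxia response element, ACGTG and GCGTG. Either form was found in 3 of the 10 windows, those of APOC1, MTTP (1 of its 2 windows) and TM6SF2, while 48.4% of all 35116 windows of this length held one. The APOC1 window and the MTTP window with a match are shown 5′ to 3′ in the direction of transcription, with the match in capitals, because the first gene was higher in every treated library at 48 h and the second was not. The APOC1 match reads ACGTG and lies 86 bases before the start, in chr19:44914422-44914721 (plus strand). The MTTP match is GCGTG on the opposite strand, thus printed as CACGC, 147 bases before the start in chr4:99563880-99564179 (plus strand).
APOC1: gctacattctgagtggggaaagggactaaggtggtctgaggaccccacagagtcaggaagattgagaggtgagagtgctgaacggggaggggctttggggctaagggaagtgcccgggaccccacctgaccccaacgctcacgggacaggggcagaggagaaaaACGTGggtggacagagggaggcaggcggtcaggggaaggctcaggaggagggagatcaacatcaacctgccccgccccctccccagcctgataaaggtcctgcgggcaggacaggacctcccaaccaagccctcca
MTTP: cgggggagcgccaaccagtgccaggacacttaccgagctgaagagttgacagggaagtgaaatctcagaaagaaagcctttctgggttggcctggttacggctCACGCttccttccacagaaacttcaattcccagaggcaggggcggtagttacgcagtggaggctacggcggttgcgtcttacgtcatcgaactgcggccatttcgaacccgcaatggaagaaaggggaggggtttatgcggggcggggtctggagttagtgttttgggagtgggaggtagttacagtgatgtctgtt
These matches are descriptions of letters in a window, and binding was not measured. The forms CAAAGTCCA and CAAAGGTCA of the element bound by the liver factor HNF4A, present in 0.384% and 0.407% of all windows, were in none of these 10 windows.

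After 48 h of Molidustat, APOC3 was upregulated 7.39-fold and was the only member called. APOA1, APOC1 and APOH were also higher in each treated library than in any DMSO library without passing the test. Of the genes of VLDL assembly none was called, and the 95% intervals of their log2 fold changes included 0 (-0.46 for APOB, -0.46 for MTTP and 0.23 for TM6SF2, of which the last 2 changed sign without DMSO 48 h replicate 2). The call of 1 of 10 members stands beside 0.21% of all genes tested called higher, and the 4 members without overlap beside 9.96% of all genes. No member was called lower, against 0.021% of all genes. DESeq2 and limma-voom with sample quality weights each called APOA1, APOC1 and APOC3 higher at 48 h, where they called 1.22% and 1.71% of all genes higher, and DESeq2 without DMSO 48 h replicate 2 called the same 3 members (0.97% of all genes). At 24 h no member was called in edgeR, against 0.231% of all genes called higher and 0% called lower, and none was called by DESeq2 or limma-voom, although DESeq2 gave no adjusted p for APOE in any comparison on all libraries. One member, APOC3, had a positive log2 fold change with an unadjusted p under 0.05 at that time, as had 3.73% of all genes.

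**Figure D1:**
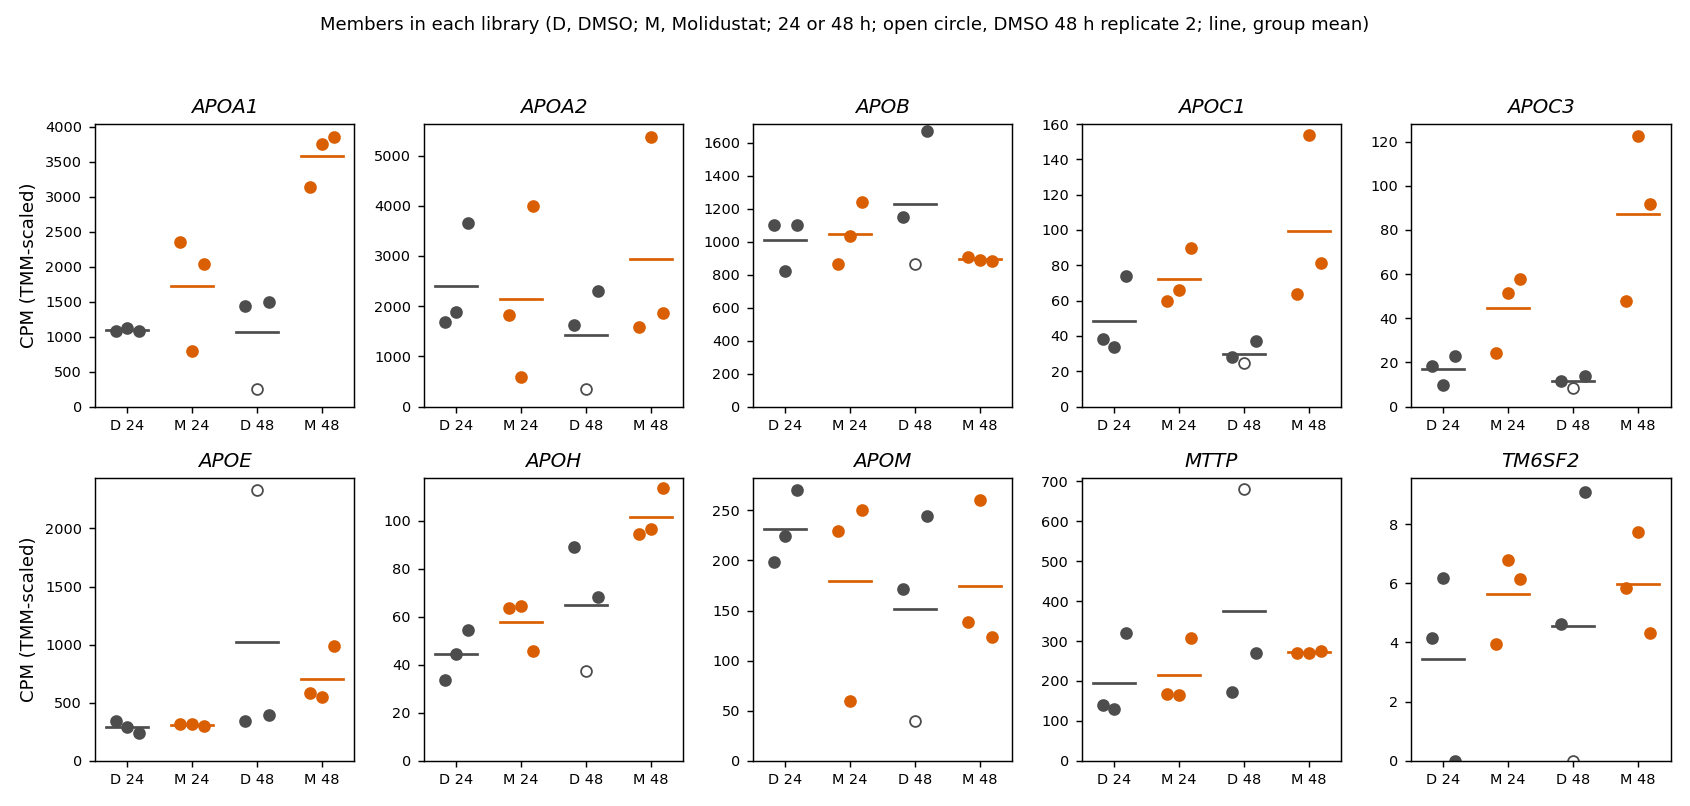
CPM (TMM-scaled, linear axis from 0) of each of the 10 members in every library, with groups on the x axis (D, DMSO; M, Molidustat; 24 or 48 h), points for the 3 libraries, lines for group means and an open circle for DMSO 48 h replicate 2. APOC3 is higher in the treated libraries at both times, and the open circle is the lowest DMSO 48 h point in 8 panels and the highest in those of APOE and MTTP.

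APOC3 encodes a small apolipoprotein that inhibits lipoprotein lipase and slows the uptake of triglyceride-rich particles by the liver. It had 18.4, 9.63 and 22.9 CPM in DMSO 24 h and 24.4, 51.2 and 57.7 CPM in Molidustat 24 h. The groups did not overlap, as in 7.26% of all genes in this direction, but the lowest treated library was close to the highest control. Its log2 fold change was 1.38 ± 0.44 (SE, n = 3 per group), with an edgeR adjusted p of 0.473, so the gene was not called at this time. At 48 h it had 11.8, 8.52 and 13.8 CPM with DMSO and 47.9, 122.3 and 91.9 CPM with Molidustat. All 3 treated libraries were thus far above the highest control. The log2 fold change was 2.89 ± 0.47 (SE, n = 3 per group), with a 95% interval from 1.89 to 3.88 and an edgeR adjusted p of 0.0121. Without DMSO 48 h replicate 2, where APOC3 rested on 8 counts, the log2 fold change was 2.75 and the adjusted p 0.0129. The call was lost without Molidustat 48 h replicate 2 (adjusted p = 0.0793) or replicate 3 (adjusted p = 0.0711), and also when 48 h was fitted without the 24 h libraries (adjusted p = 0.103).

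APOC1, another small exchangeable apolipoprotein that hinders the uptake of remnant particles, behaved in a similar way with a smaller change. Its levels were 38.4, 33.5 and 74.2 CPM in DMSO 24 h and 59.9, 66.2 and 90.0 CPM in Molidustat 24 h. Here the groups overlapped, as DMSO 24 h replicate 3 lay above 2 of the treated libraries, and the log2 fold change of 0.56 ± 0.39 (SE, n = 3 per group) had a 95% interval that included 0. This value ran from 0.354 to 0.985 with each library left out in turn. At 48 h the levels were 27.9, 24.5 and 37.3 CPM with DMSO and 63.6, 153.6 and 81.6 CPM with Molidustat. Every treated library was above every control, by 3.28-fold in the fit. The log2 fold change of 1.71 ± 0.41 had an edgeR adjusted p of 0.129 and did not pass, and without DMSO 48 h replicate 2 it was 1.59 ± 0.42 (adjusted p = 0.164). DESeq2 called it with an adjusted p of 0.00869.

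Among APOA1, APOA2 and APOM, which are proteins of HDL, APOA1 differed most with treatment. APOA1 is the main structural protein of HDL and the activator of lecithin-cholesterol acyltransferase. It had 1085, 1122 and 1075 CPM in DMSO 24 h and 2349, 792 and 2039 CPM in Molidustat 24 h. The controls were nearly equal, and 2 of the 3 treated libraries were well above them while Molidustat 24 h replicate 2 was below. At 24 h this gave a log2 fold change of 0.66 ± 0.53 (SE, n = 3 per group), or 0.3745 to 1.003 with each library left out in turn. At 48 h APOA1 had 1434, 258 and 1489 CPM with DMSO and 3143, 3747 and 3858 CPM with Molidustat. The treated libraries were all above the controls, and the lowest control by far was DMSO 48 h replicate 2. The log2 fold change of 1.75 ± 0.54 (3.37-fold) had an edgeR adjusted p of 0.208. Without that library it was 1.28 ± 0.33 with an adjusted p of 0.154, so neither value passed the test. DESeq2 called APOA1 on all libraries (adjusted p = 0.029) and without that library (adjusted p = 0.00919).

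APOA2, the second protein of HDL, varied more between libraries than between treatments. Its levels were 1682, 1884 and 3666 CPM in DMSO 24 h and 1826, 594 and 3991 CPM in Molidustat 24 h. At 48 h they were 1631, 352 and 2301 CPM with DMSO and 1593, 5379 and 1860 CPM with Molidustat. The groups overlapped at both times, and the log2 fold changes of -0.17 ± 0.70 and 1.04 ± 0.71 (SE, n = 3 per group) had 95% intervals that included 0. Without Molidustat 24 h replicate 2 the 24 h value was 0.28. The 48 h value was 0.25 without Molidustat 48 h replicate 2 and 0.57 without DMSO 48 h replicate 2.

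APOM, a lipocalin of HDL that carries sphingosine 1-phosphate, had 199, 225 and 271 CPM in DMSO 24 h and 230, 59.7 and 250 CPM in Molidustat 24 h. After 48 h it had 171, 39.4 and 245 CPM with DMSO and 139, 260 and 124 CPM with Molidustat. Neither time gave a difference beyond the spread, with log2 fold changes of -0.36 ± 0.57 and 0.18 ± 0.57 (SE, n = 3 per group), and the 48 h value turned to -0.27 ± 0.44 without DMSO 48 h replicate 2. APOA1, APOA2 and APOM shared their low libraries. All 3 were lowest of their group in Molidustat 24 h replicate 2 and in DMSO 48 h replicate 2. Those libraries also had the lowest sample quality weights in limma-voom (0.418 and 0.298).

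**Figure D2:**
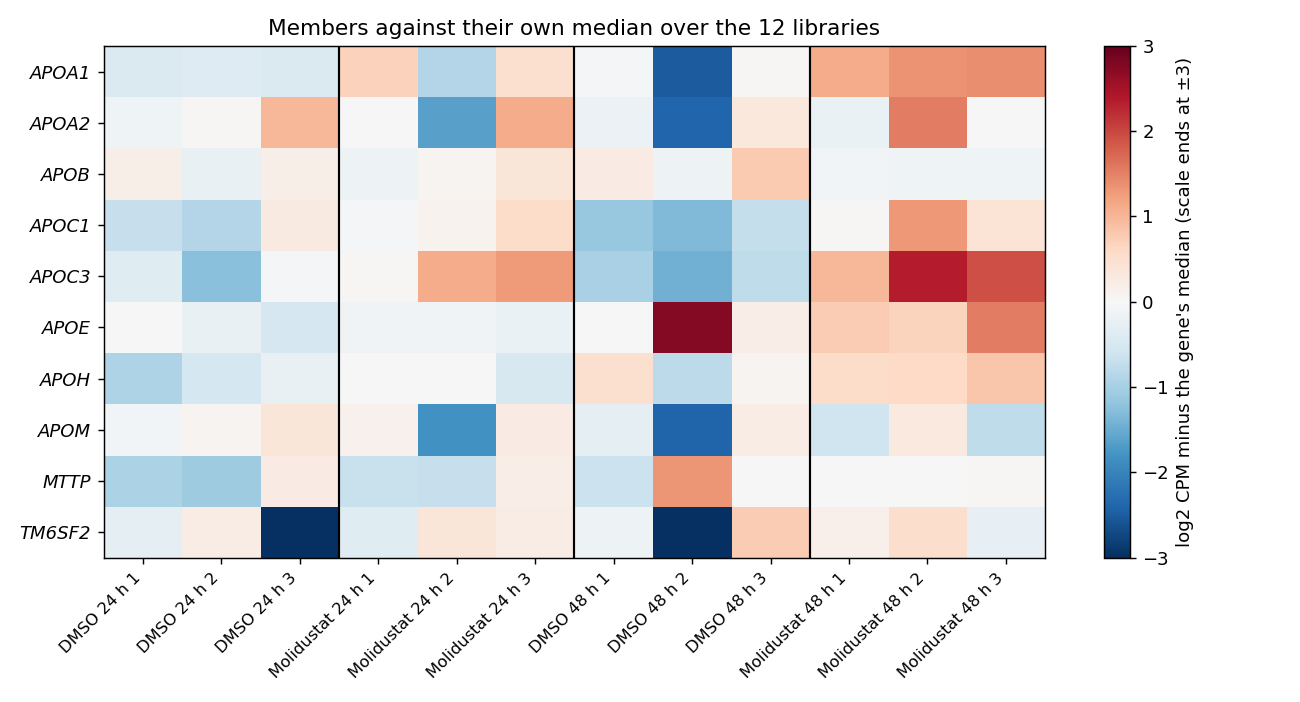
Heat map of log2 CPM minus the gene's own median over the 12 libraries, with members in rows, libraries in columns and vertical lines between the groups; the color scale ends at ±3, and the 2 darkest TM6SF2 cells are libraries with 0 counts, whose value depends on the prior count. APOA1, APOA2 and APOM are low together in Molidustat 24 h replicate 2 and DMSO 48 h replicate 2, while APOC3 is high in the 3 Molidustat 48 h libraries.

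APOE, the ligand by which remnant particles bind receptors of the LDL receptor family, was the member whose 48 h value depended most on a single library. At 24 h its levels were close together, with 344, 293 and 241 CPM in DMSO and 318, 317 and 298 CPM in Molidustat. The log2 fold change was 0.09 ± 0.56 (SE, n = 3 per group). This SE uses a spread estimated over all 12 libraries, including DMSO 48 h replicate 2, and not that of the 24 h libraries alone. After 48 h APOE had 342, 2328 and 395 CPM with DMSO and 581, 547 and 990 CPM with Molidustat. The value in DMSO 48 h replicate 2 was thus above every other library, while the remaining controls were below every treated library. With all libraries the log2 fold change was -0.53 ± 0.56 (adjusted p = 0.757), and without that library it turned to 0.92 ± 0.28 (edgeR adjusted p = 0.312). Neither was called.

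APOB, the non-exchangeable protein of VLDL and LDL, was nearly equal in the 3 treated libraries at 48 h. It had 1099, 824 and 1102 CPM in DMSO 24 h and 868, 1032 and 1239 CPM in Molidustat 24 h, with a log2 fold change of 0.05 ± 0.33 (SE, n = 3 per group). At 48 h it had 1147, 865 and 1672 CPM with DMSO and 908, 888 and 886 CPM with Molidustat. The treated libraries lay within the range of the controls. The log2 fold change of -0.46 ± 0.33 had a 95% interval from -1.16 to 0.24, and was -0.67 ± 0.25 without DMSO 48 h replicate 2 (edgeR adjusted p = 0.529). APOB was then the only member lower in all treated libraries than in the remaining controls.

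MTTP, which transfers lipid onto nascent APOB, had 139, 129 and 320 CPM in DMSO 24 h and 168, 165 and 308 CPM in Molidustat 24 h. Its 48 h levels were 173, 680 and 270 CPM with DMSO and 269, 270 and 276 CPM with Molidustat. The groups overlapped at both times. The 48 h log2 fold change was -0.46 ± 0.48 (SE, n = 3 per group; the 95% interval ran from -1.47 to 0.56) and turned to 0.28 ± 0.38 without DMSO 48 h replicate 2.

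TM6SF2, an endoplasmic reticulum membrane protein that promotes the lipidation of VLDL, was near the limit of detection. It had 18, 16 and 0 counts in DMSO 24 h, 11, 56 and 32 in Molidustat 24 h, 34, 0 and 88 in DMSO 48 h, and 26, 18 and 23 in Molidustat 48 h. A count of 0 allows up to 0.617 CPM in DMSO 24 h replicate 3 and up to 3.18 CPM in DMSO 48 h replicate 2, counting error only, whereas the other libraries had 3.94 to 9.09 CPM. With SEs above 1 (0.76 ± 1.08 and 0.23 ± 1.06 at the earlier and later time, log2 scale, n = 3 per group), its values varied too much between libraries to place the difference on either side of 0. The 48 h value turned to -0.23 ± 0.96 without DMSO 48 h replicate 2. The 24 h value ran from 0.13 to 1.45 with each library left out in turn.

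APOH, or beta-2-glycoprotein I, binds phospholipid surfaces and circulates partly on lipoproteins. It had 33.8, 44.7 and 54.5 CPM in DMSO 24 h and 63.8, 64.3 and 45.6 CPM in Molidustat 24 h, with overlapping groups and a log2 fold change of 0.38 ± 0.34 (SE, n = 3 per group). That value ran from 0.22 to 0.55 with each library left out in turn. At 48 h it had 88.9, 37.3 and 68.1 CPM with DMSO and 94.4, 96.5 and 113.7 CPM with Molidustat. The treated libraries were all higher, by a small margin over DMSO 48 h replicate 1. Its log2 fold change of 0.63 ± 0.34 had an edgeR adjusted p of 0.455, and was 0.36 without DMSO 48 h replicate 2.

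**Figure D3:**
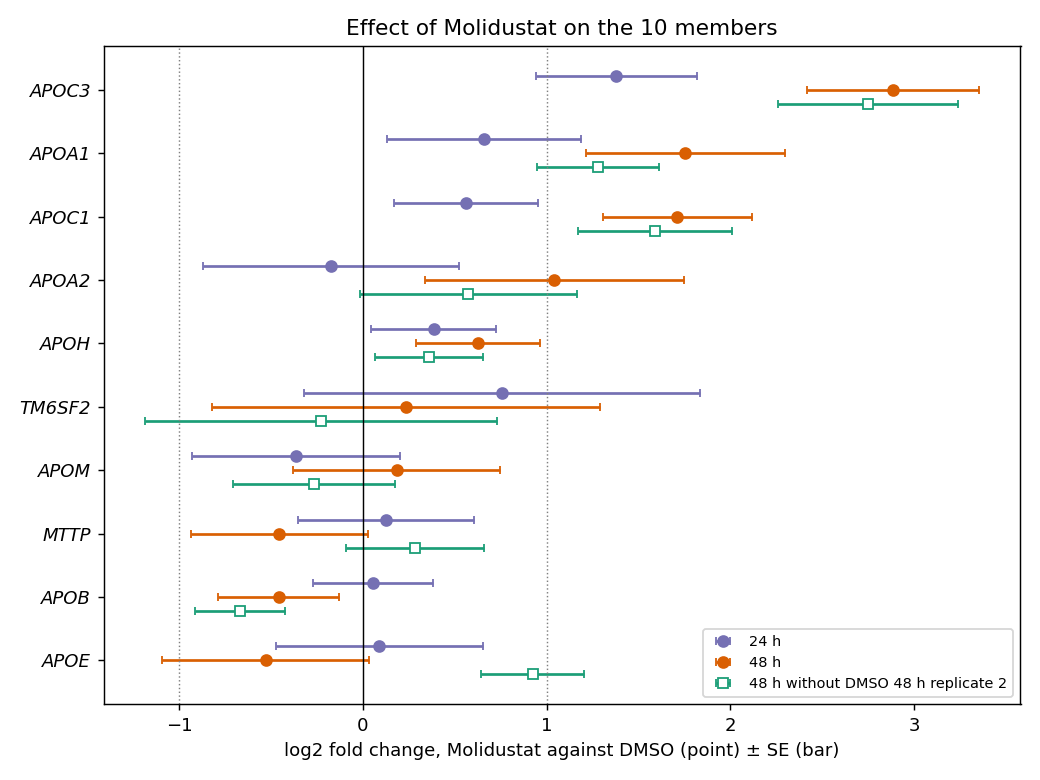
Log2 fold change of Molidustat against DMSO (x axis; points) with its SE (bars; n = 3 libraries per group, 2 DMSO libraries for the open squares) for each member (y axis), at 24 h, at 48 h, and at 48 h without DMSO 48 h replicate 2; dotted lines mark a log2 fold change of 1 in either direction. APOC3, APOA1 and APOC1 lie above 1 at 48 h with and without that library, and the APOE, MTTP, APOM and TM6SF2 points change side of 0.

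As a group, the members had a median log2 fold change of 0.26 at 24 h, where the median of all genes tested was 0.02, and 8 of 10 were positive. At 48 h their median was 0.43 against 0.01 for all genes, with 7 of 10 positive, and without DMSO 48 h replicate 2 it was 0.47 against 0.01. Over all genes 51.5% were positive at 24 h and 50.4% at 48 h. When DMSO 48 h replicate 2 was set aside, 5 members (APOA1, APOC1, APOC3, APOE and APOH) were higher in all treated libraries than in both remaining controls, a pattern seen in 13.7% of all genes, and APOB was lower, as were 15.4%. The 10 members together took 0.501%, 0.482% and 0.696% of gene counts in DMSO 24 h and 0.610%, 0.316% and 0.849% in Molidustat 24 h. At 48 h they took 0.541%, 0.288% and 0.685% with DMSO and 0.717%, 1.156% and 0.861% with Molidustat. These shares overlapped at 24 h (0.560% ± 0.119 and 0.592% ± 0.267, SD, n = 3) and did not at 48 h (0.505% ± 0.201 and 0.911% ± 0.224, SD, n = 3). They follow the abundant members, with 124869 counts for APOA2, 105010 for APOA1 and 65902 for APOB over all libraries. No other member had more than 26132. The highest share, 1.156%, was in Molidustat 48 h replicate 2, where APOA2 had 5379 CPM. In bulk RNA, a change in the number of cells with a transcript and a change in transcript per cell cannot be told apart. The hepatocyte marker list moved with the members, with 12 of 12 log2 fold changes positive at both times (median 0.54 at 24 h and 1.04 at 48 h, or 0.69 at 48 h without DMSO 48 h replicate 2). None of them was called in edgeR, and 4 at 24 h and 8 at 48 h had an unadjusted p under 0.05, where 3.73% and 4.53% of all genes did so with a positive log2 fold change. DESeq2 and limma-voom each called 2 at 24 h, beside 0.932% and 0.448% of all genes called higher, and 4 at 48 h, beside 1.22% and 1.71%, and the part of this list in the members' values was not tested. Without DMSO 48 h replicate 2, TF, SERPINA1 and VTN of that list were called higher at both times, beside 0.728% of all genes at 24 h and 0.315% at 48 h.

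The change of the drug effect from 24 h to 48 h was then tested directly. No member was called in this interaction, nor was any gene (0% of 14274), and DESeq2 (with no adjusted p for APOE) and limma-voom called no member either. One member had an unadjusted p under 0.05 (1.18% of all genes in this direction), APOC3, whose effect was 1.51 ± 0.62 larger on the log2 scale at 48 h (edgeR adjusted p = 0.728). For APOC1 the difference was 1.15 ± 0.56 (0.683 to 1.385 with each library left out in turn) and for APOA1 1.10 ± 0.75 (0.612 to 1.408). The larger values at 48 h are therefore not shown to differ from those at 24 h.

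Time in culture was examined in each arm. In DMSO no member was called between 48 h and 24 h, as 0.00701% of all genes were called lower and 0% higher, and DESeq2 and limma-voom called none on all libraries, with no DESeq2 adjusted p for APOE. One member had an unadjusted p under 0.05 (6.76% of all genes in this direction), APOE, with a log2 fold change of 1.80 ± 0.58 (edgeR adjusted p = 0.541). This value rested on DMSO 48 h replicate 2 and was 0.36 ± 0.27 in edgeR without it. With Molidustat no member was called either (0% of all genes), with 2 members at an unadjusted p under 0.05 (2.39% of all genes in this direction), APOC3 and APOH, and none called by DESeq2 (again with no adjusted p for APOE) or limma-voom on all libraries. APOA1, APOE and APOH were higher in every 48 h than in every 24 h Molidustat library, which held for 7.15% of all genes. Their log2 fold changes were 1.05 ± 0.53 for APOA1, 1.18 ± 0.57 for APOE and 0.81 ± 0.34 for APOH. With DMSO 48 h replicate 2 left out, DESeq2 called APOA1 (adjusted p = 0.0395) and APOE (adjusted p = 0.000923) over time in this arm, and 0.275% of all genes.

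Some of the members are neighbors in the genome. APOC3 (chr11:116829706-116833072, plus strand) and APOA1 (chr11:116835751-116837622, minus strand) are 2678 bases apart on GRCh38, in a cluster with APOA4 and APOA5. APOE (chr19:44905791-44909393) and APOC1 (chr19:44914247-44919349), both on the plus strand, are 4853 bases apart in a cluster with APOC4 and APOC2. At 48 h the log2 fold changes in the first cluster were 2.89 for APOC3, 1.75 for APOA1 and 3.49 ± 1.65 for APOA5, an activator of lipoprotein lipase, which was at 0, 0 and 1.03 CPM with DMSO and 2.47, 3.003 and 10.3 CPM with Molidustat (edgeR adjusted p = 0.376). APOA4 was below the filter. In the second cluster they were 1.71 for APOC1, -0.53 for APOE (0.92 without DMSO 48 h replicate 2) and 1.84 ± 0.49 for APOC2, the cofactor of lipoprotein lipase. APOC2 had 124, 61.8 and 157 CPM with DMSO and 259, 697 and 281 CPM with Molidustat (edgeR adjusted p = 0.186), with no overlap. Its value is uncertain, since the read-through gene APOC4-APOC2 shares its sequence and was counted at 91.4% to 94.4% of it. Counts of genes that overlap the members differed in size. APOA1-AS, antisense to APOA1, had 2 to 21 counts per library. ENSG00000280087, on the strand of APOC1 and APOE and overlapping both, had 1 to 48. BAG6, on the strand opposite APOM, had 40 to 769, and the strand setting of the counting is not given in the sources used here. The APOC1 pseudogene APOC1P1, which lies beyond APOC1 without overlapping it, had 0 to 8.

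The remaining members lie apart. APOA2 is at chr1:161222292-161223631 (minus strand), APOB at chr2:21001429-21044073 (minus strand) and MTTP at chr4:99564081-99623997 (plus strand). APOM is at chr6:31652416-31658210 (plus strand), APOH at chr17:66212033-66256525 (minus strand) and TM6SF2 at chr19:19264364-19273391 (minus strand).

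Of the wider lipoprotein pathway, 73 genes in 6 lists were tested and edgeR called none in either comparison. At an unadjusted p under 0.05, 8 were higher at 24 h, beside 3.73% of all genes, and at 48 h 6 were higher and 8 lower, beside 4.53% and 8.81% of all genes. Neither DESeq2 nor limma-voom called any at 24 h. At 48 h DESeq2 called 4 of the 73 higher and limma-voom 6, beside 1.22% and 1.71% of all genes. Those called by both included APOC2, NR0B2 and the liver factor ONECUT1, and limma-voom also called ABCA7 and PON1. EdgeR without DMSO 48 h replicate 2 called none of these named genes (adjusted p = 0.302 for APOC2, 0.167 for NR0B2 and 0.118 for ONECUT1). Of 17 other apolipoproteins 7 were tested, with a median log2 fold change of -0.06 at 24 h and 0.65 at 48 h, and 5 of 7 were positive at 48 h. That median was 0.27 without DMSO 48 h replicate 2, with 7 of 8 tested genes positive. The highest was APOA5 at both times (1.73 ± 1.70 at 24 h) and the lowest were SAA4, an HDL protein of constitutive liver expression, at 24 h (-1.05 ± 1.02) and APOL2 at 48 h (-0.97 ± 0.67, or 0.35 without DMSO 48 h replicate 2). Without that library APOO was lowest at 48 h (-0.094). Of 18 genes for VLDL lipidation and export 17 were tested, with medians of 0.10 and -0.06 (-0.10 at 48 h without DMSO 48 h replicate 2). Their extremes were TMEM41B, a scramblase needed for lipoprotein export (0.96 ± 0.52 at 24 h), ARFRP1, a GTPase of the Golgi (-0.42 ± 0.44 at 24 h and 0.65 ± 0.44 at 48 h, or 0.31 without DMSO 48 h replicate 2), and SAR1A, a GTPase of the COPII coat (-2.01 ± 0.62 at 48 h). SAR1A had 474, 3692 and 467 CPM in DMSO 48 h against 398, 346 and 407 CPM in Molidustat 48 h. Its 48 h value was -0.31 without the DMSO 48 h replicate 2 library that alone was high. Without that library the 48 h extremes of this list were P4HB (0.54) and SAR1B (-0.47).

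Of 13 genes for receptors and uptake 10 were tested, with medians of 0.38 at 24 h and -0.18 at 48 h, when 3 of 10 were positive. Without DMSO 48 h replicate 2 the 48 h median was 0.064, with 5 of 10 positive. SORL1, a sorting receptor of the LDL receptor family, was highest at 24 h (1.56 ± 0.57, edgeR adjusted p = 0.700). SDC1, a heparan sulfate proteoglycan that binds remnants, was lowest at both times (-0.43 ± 0.54 and -1.51 ± 0.55, the latter -0.27 without DMSO 48 h replicate 2). Without that library LRP8 was lowest at 48 h (-0.95). Of 13 plasma enzymes and transfer proteins 9 were tested, with medians of 0.41 and 0.43 (0.47 at 48 h without that library). PLTP, the phospholipid transfer protein, was highest at 24 h (2.10 ± 1.11) and PON1, an esterase carried on HDL, at 48 h (2.02 ± 0.82, or 2.33 without it). Hepatic lipase (LIPC) was lowest at 24 h (-0.60 ± 0.52) and LCAT, which esterifies the cholesterol of HDL, at 48 h (-1.96 ± 0.99, or -1.45 without it). Of 7 genes of lipid efflux to HDL and bile 6 were tested, with medians of 0.14 at 24 h and -0.76 at 48 h, the latter 0.14 without DMSO 48 h replicate 2. ABCA7, a lipid transporter, was highest at 24 h (1.88 ± 0.88), NPC2, a cholesterol carrier of lysosomes, at 48 h (0.70 ± 0.34, or 0.39 without that library, when ABCA7 was highest at 2.21), and ABCG8, a subunit of the sterol transporter of bile, was lowest at both times with at most 5.32 CPM in any library.

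All 24 transcription factors of apolipoprotein genes were tested, with medians of -0.07 at 24 h and 0.08 at 48 h (-0.0100 without DMSO 48 h replicate 2). NR0B2, the small heterodimer partner that represses other nuclear receptors, had the highest value at 48 h. It had 0.407, 0 and 3.41 CPM with DMSO and 18.4, 17.2 and 15.8 CPM with Molidustat, a log2 fold change of 3.39 ± 0.85 (edgeR adjusted p = 0.153) that was 3.11 without DMSO 48 h replicate 2. All treated libraries were above the controls, and the same held at 24 h (2.23 ± 0.81). PPARGC1A, a coactivator of oxidative metabolism, was highest at 24 h (3.37 ± 1.73) with at most 1.82 CPM in any 24 h library. NR2F1, an orphan nuclear receptor, was lowest at 24 h (-0.49 ± 0.37). HNF4A, the nuclear receptor that drives many liver genes, was lowest at 48 h (-1.88 ± 0.82), with 70.5, 1237 and 209 CPM in DMSO and 156, 145 and 108 CPM in Molidustat. Without DMSO 48 h replicate 2 its log2 fold change was -0.05, and NR2F2 was then lowest at 48 h (-0.72).

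**Figure D4:**
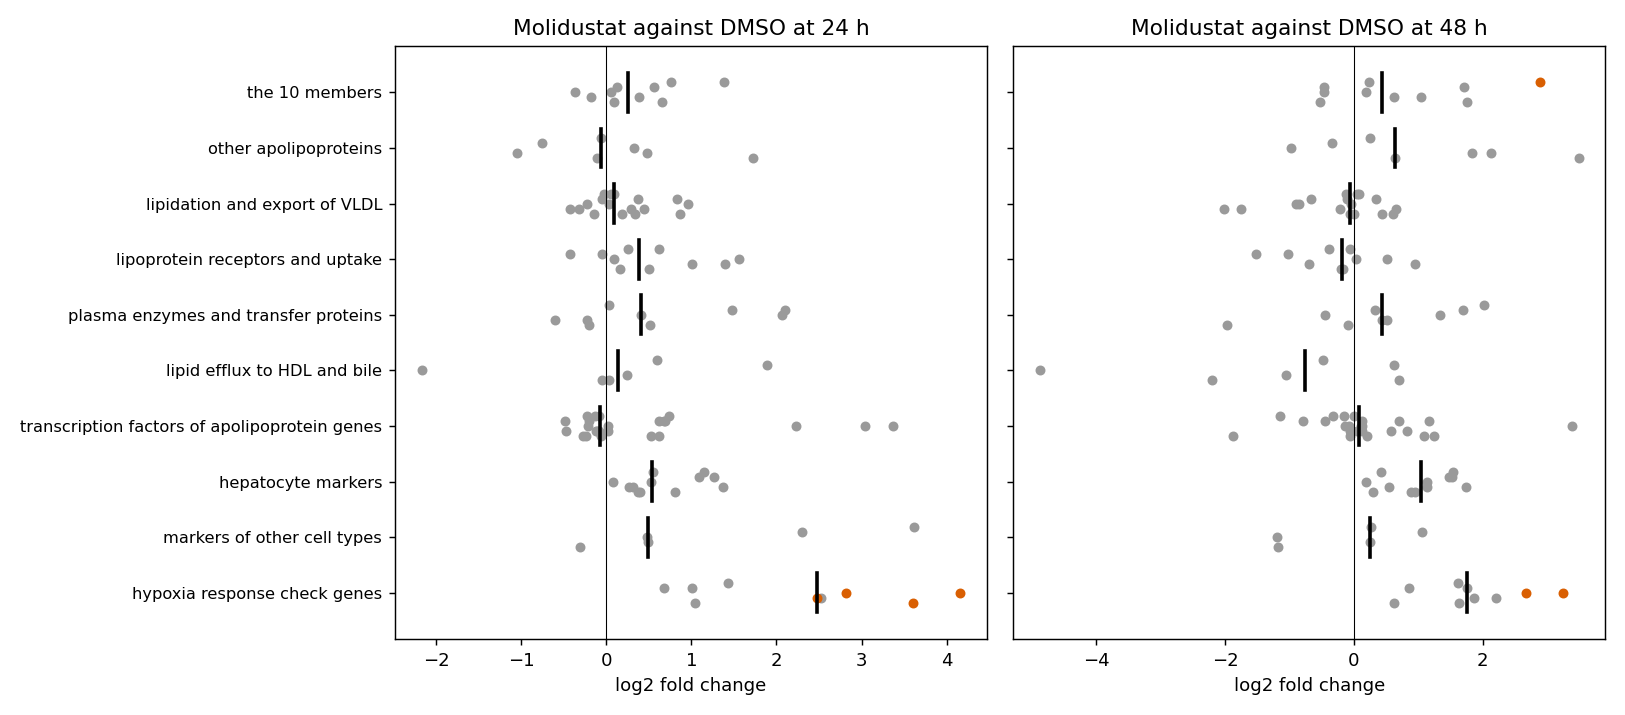
Log2 fold change of Molidustat against DMSO (x axis) at 24 h (left) and 48 h (right) for every tested gene (points) of the 10 members and of each other list (rows), with a line at each list's median and called genes in orange. APOC3 is the only orange point outside the hypoxia response check genes, whose medians are 2.48 and 1.76.

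As a check of the drug, 10 genes of the hypoxia response were examined, of which 9 were tested and all 9 had positive log2 fold changes at both times. BNIP3, a mitochondrial receptor of mitophagy, had 176, 196 and 103 CPM in DMSO 24 h and 1125, 975 and 1232 CPM in Molidustat 24 h. It rose by 2.81 ± 0.34 at 24 h (edgeR adjusted p = 0.000977) and by 2.68 ± 0.34 at 48 h (adjusted p = 0.00149), on the log2 scale. The glycolytic regulator PFKFB4 rose at both times as well (4.16 ± 0.63 and 3.24 ± 0.59). PDK1 (3.60 ± 0.68) and LDHA (2.48 ± 0.38), which turn pyruvate away from mitochondria, rose at 24 h. At 48 h their values were 1.64 ± 0.63 (edgeR adjusted p = 0.271) and 1.86 ± 0.37 (adjusted p = 0.0610), with every treated library above the controls. LDHA was called at 48 h without DMSO 48 h replicate 2 (1.55 ± 0.27, adjusted p = 0.012), and PDK1 was not (2.47 ± 0.56, adjusted p = 0.0698). ADM (0.67 ± 0.56 at 24 h) and EGLN3 (0.63 ± 1.004 at 48 h) gave the lowest values, and without that library EGLN3 had 1.71 and VEGFA, at 0.84, was lowest at 48 h. On all libraries, the 48 h value of APOC3, 2.89, lay within the range of these 9 genes (0.63 to 3.24, median 1.76). A shared cause was not tested. The extremes of the hepatocyte markers were VTN, vitronectin (1.38 ± 0.38 at 24 h and 1.75 ± 0.38 at 48 h), and FGG, a fibrinogen chain (0.08 ± 0.29 and 0.19 ± 0.29). Of the 12 markers of other cell types, 5 were tested and edgeR called none, with 1 at an unadjusted p under 0.05 at each time, while DESeq2 and limma-voom called LYZ lower at 48 h. Their extremes were COL3A1 (3.62 ± 2.16) and LYZ (-0.31 ± 0.30) at 24 h, and COL1A2 (1.06 ± 0.87) and PECAM1 (-1.19 ± 1.69) at 48 h. Their summed level was 152 to 234 CPM at 24 h in both arms, and at 48 h it was 111, 135 and 147 CPM in DMSO and 65.4, 51.9 and 84.7 CPM in Molidustat, a sum made up mostly of LYZ. COL1A2, a collagen chain of fibroblasts, was higher in every treated library at both times, with means of 0.427 and 2.20 CPM at 24 h and 2.39 and 5.06 CPM at 48 h, and 4 of the 5 tested markers had positive log2 fold changes at 24 h and 3 of 5 at 48 h. DCN, another fibroblast gene, was at 0 with DMSO and at 3.37, 2.57 and 0 CPM with Molidustat at 48 h, and the part of these markers in the members' values was not tested.

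The members did not vary as a block. Across the 12 libraries, which include the differences between groups, the 45 pairs of members had Pearson correlations of log2 CPM from -0.69 to 0.93 with a median of 0.20, and 29 were positive. Without DMSO 48 h replicate 2 they ran from -0.35 to 0.91 (median 0.24, 33 positive). The pair most alike was APOC1 and APOC3 in both cases. APOA2 and APOM followed (0.92, or 0.85 without that library), and APOE with APOM was the least alike over 12 libraries (-0.69, or -0.27 without it). Among the genes outside the list closest to the members' mean standardized log2 CPM over 12 libraries were FABP1 (0.94), the liver fatty acid binding protein, BEX3 (0.93), GCHFR (0.92) and ORM2 (0.91), an acute phase plasma protein. Without DMSO 48 h replicate 2 they included BEX3 (0.93), ZFP90 (0.92), FABP1 (0.91) and RABAC1 (0.91), so BEX3 and FABP1 were named in both cases. These correlations describe likeness over libraries that share treatment groups.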

How the data were processed

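Huh7 cells cultured with 25 µM Molidustat or DMSO alone for 24 h or 48 h gave 12 libraries, 3 per group, prepared with a 3′ kit. Per the labels and the submitters' processing notes, reads were handled with bcl2fastq 2.17.1.14, cutadapt 1.9.1, STAR 2.7.9a and HTSeq 0.11.2 on GRCh38, and the authors deposited raw counts per gene for each library. The annotation release, the strand setting and the use of molecular identifiers are not given in the sources used here. The 5 summary lines of each file entered neither library sizes nor tests. They held 2 lines with the same number, counted once, and reads on no feature were 17.1% to 50.4% of the listed reads.

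Gene names and coordinates came from GENCODE 44, which named 60437 of 60666 identifiers. Gene counts ranged from 1499273 to 9179389 per library. Counts were tested with edgeR 4.0.16 in R 4.3.3: TMM factors, filterByExpr (minimum count 10, minimum total 15), 1 quasi-likelihood fit over all 12 libraries with group means, and Benjamini-Hochberg adjustment over 14274 genes. A call needed an adjusted p under 0.05 together with an absolute log2 change above 1, with no fold threshold for the change between times. The SE is the log2 fold change divided by the root of its F statistic, and rests on a spread estimated over all libraries in the fit. CPM used the scaled library sizes, and log2 CPM a prior count of 2. A count of 0 was given an upper limit of 3 counts. Alternatives were DESeq2 1.42.0, limma-voom (limma 3.58.1) with sample quality weights, other scalings and filters, thinning to the smallest library, a replicate block, each time alone and leaving out each library. The scripts were tested on simulated data. The authors also name DESeq2 1.26.0, and their fold changes were not used.

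The members and gene lists were chosen with earlier results of these data known. Besides the members, each list's called genes and its highest and lowest log2 fold change at each time were named, together with the 5 genes of highest Pearson correlation with the members' mean standardized log2 CPM; some genes this rule names are not reported here. The neighboring genes APOC2, APOA4 and BAG6, other overlapping genes, and TF, SERPINA1 and ONECUT1 were added after their values were seen. Promoter windows were matched by symbol to RefSeq (GRCh38.p14).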

Additional observations from a re-analysis of the deposited data

How the results depend on the processing

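Under the alternatives, 1 member was called at 48 h in the fit reported and 3 (APOA1, APOC1 and APOC3) with DESeq2, with no filter on low counts, with limma-voom and sample quality weights, and with DESeq2 when DMSO 48 h replicate 2 was left out, the last chosen after seeing the data. With each time point fitted alone, or with at least 10 counts required in every library, the number was 0, and under the second filter APOC3 and TM6SF2 were not tested. Leaving out each library in turn gave 0 to 1, with APOC3 lost without Molidustat 48 h replicate 2 or 3. Over time, the number called in DMSO was 1 (APOE) with no filter on low counts, and with Molidustat 2 (APOA1 and APOE) with DESeq2 when DMSO 48 h replicate 2 was left out. No other alternative changed a number of members called. The cause of these changes was not tested. Scaling by total counts moved the median of all genes at 48 h from 0.01 to 0.13 on the log2 scale, and APOC3 then had 2.98.

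Of 1110 recomputed log2 fold changes of members, 59 had another sign than reported, 11 were newly called, 3 were no longer called and 1037 were unchanged in direction and call. No value that changed sign was called under either setting. With limma-voom weights the 48 h values were 0.80 for APOE, -0.32 for APOM, 0.20 for MTTP and -0.37 for TM6SF2, the changes between times 0.74 for APOE and -0.024 for APOM, APOA1 over time in DMSO 0.24 and TM6SF2 over time in Molidustat -0.085. In DESeq2 with DMSO 48 h replicate 2 left out, the 48 h values were 0.97 for APOE, -0.22 for APOM, 0.33 for MTTP and -0.18 for TM6SF2, the changes between times 0.88 for APOE and 0.20 for MTTP, and APOA1 over time in DMSO 0.39. Thinning to the smallest library gave 0.12 for APOM over time in Molidustat.

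Leaving out each library in turn gave, at 24 h, -1.01 to 0.28 for APOA2, -0.10 to 0.17 for APOB, -0.051 to 0.22 for APOE, -0.69 to 0.055 for APOM and -0.24 to 0.66 for MTTP. At 48 h it gave -0.90 to 0.92 for APOE, -0.27 to 0.68 for APOM, -0.77 to 0.28 for MTTP and -0.23 to 1.06 for TM6SF2. For APOB it gave -0.67 to -0.16 at 48 h. For the change between times the ranges were -0.98 to 0.82 for APOE, -0.038 to 0.54 for APOH, -1.13 to 0.15 for MTTP and -1.25 to 0.31 for TM6SF2. Over time in DMSO they were -0.38 to 0.44 for APOA1, -0.036 to 0.51 for APOB and -0.27 to 1.28 for TM6SF2. Over time in Molidustat they were -0.32 to 1.27 for APOA2, -0.0015 to 0.68 for APOC1, -0.49 to 0.26 for APOM and -0.17 to 0.23 for TM6SF2. The difference in the members' share of gene counts ran from -0.0967 to 0.170 percentage points at 24 h and from 0.284 to 0.504 at 48 h.

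Libraries with the same replicate number did not deviate together (correlations of deviations of 0.02, -0.03 and 0.12 at 24 h and -0.05, -0.01 and 0.05 at 48 h), so the numbers were not treated as pairs. The replicate block left 1 member called at 48 h (APOC3, log2 fold change 2.83, edgeR adjusted p = 0.0208) and gave 0.22 for APOM over time in Molidustat. With the replicate block and DMSO 48 h replicate 2 left out, the 48 h values were 0.96 for APOE, -0.16 for APOM, 0.49 for MTTP and -0.60 for TM6SF2, the changes between times 0.86 for APOE, -0.060 for APOH and 0.30 for MTTP, APOA1 over time in DMSO 0.31 and APOM over time in Molidustat 0.035. Counting error is largest for the low members, as APOC3 rested on 8 counts in DMSO 48 h replicate 2, the smallest library. TM6SF2 had 0 counts in that library and in DMSO 24 h replicate 3, which was not among the smallest, and the cause was not tested.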
